A study of Mus musculus with 6 samples.

Results

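The genes described here are 10 factors and feedback genes of the NF-κB pathway, chosen by name and read from the 55487 genes of the deposited table. They comprise 4 subunits of the Rel family (Nfkb1, Nfkb2, Rel, Relb), 2 inhibitors of the IκB family (Nfkbia, Nfkbiz), the feedback regulators Tnfaip3 and Zfp36, the immediate early gene Ier3, and the cytokine gene Tnf. Total RNA was sequenced from 6 libraries made from Kit-positive cells of mouse bone marrow, Kit being a receptor that marks haematopoietic stem and progenitor cells. In the WT group (n = 3) a lentivirus made the cells overexpress wild type MLLT3, and in the DM group (n = 3) it made them overexpress MLLT3 K63E K67E, which carries substitutions in the YEATS domain that reads acylated histones. Both groups were sorted and kept in methylcellulose for 8 days, with Flt3L (10 ng/mL), further cytokines at 20 ng/mL each (EPO, SCF, GM-CSF, IL-3, IL-6 and IL-11 among them) and 200 nM 4-hydroxytamoxifen, which was meant to delete the endogenous Mllt3 gene in WT and DM alike. WT is therefore a rescue with the unchanged protein, not an untreated control, and the mouse strain, the age of the animals and the Cre driver are not given in the sources used here. The labels number the replicates but do not say whether they came from separate animals or cultures. The p-values therefore weigh a difference between the groups against the spread between these libraries, which may be technical.

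NF-κB is a family of dimeric transcription factors built from Rel proteins. IκB proteins hold most dimers in the cytoplasm until a kinase complex, IKK, marks the inhibitor for destruction after signals such as TNF or bacterial products. Nfkb1 and Nfkb2 encode precursors that are cut to the DNA-binding subunits p50 and p52, and dimers of p52 with RELB serve the slower, noncanonical branch. Among the genes that NF-κB switches on are its own brakes: Nfkbia, Tnfaip3, which encodes the ubiquitin-editing enzyme A20, and Zfp36, which encodes tristetraprolin, a protein that shortens the life of Tnf mRNA. In bone marrow the pathway is best known for inflammatory responses of monocytes, macrophages and neutrophils.

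All values are regularized log (rlog) values, a log2 scale normalized for library size on which low genes are pulled toward their mean, and a change is the DM mean minus the WT mean. All 10 genes lay far above the filter (a mean of at least 3, met by 18766 genes). By limma with Benjamini-Hochberg adjustment over these 18766 genes, 13.9% of genes were called at an adjusted p under 0.05, 9.2% as higher and 4.71% as lower in DM. Of all called genes 66.1% were higher in DM, and 51.3% after quantile normalization of the libraries. Mllt3, the gene both deleted and supplied, ran from 12.44 to 12.87 in WT and from 11.99 to 12.44 in DM (change -0.48, limma adjusted p 0.0448). The groups overlapped, with DM replicate 1 (12.443) just above WT replicate 3 (12.438). The values of Mllt3 do not separate the vector's transcripts from endogenous ones. Kit itself did not pass the test (14.39 ± 0.157 in WT against 14.6 ± 0.296 in DM, mean ± SD, n = 3, change 0.2, limma adjusted p 0.368), nor did Cd34 (change -0.01, limma adjusted p 0.966). These bulk values cannot tell a shift in the share of a cell type from a change in RNA per cell.

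Of the 10 genes, 6 rose in DM and none fell, while 9.2% of all genes tested were called higher and 4.71% lower. The 6 were Tnf, Tnfaip3, Nfkb2, Zfp36, Relb and Rel. The other 4, Ier3, Nfkbia, Nfkbiz and Nfkb1, did not pass the test. All 10 had a higher mean in DM, against 51.6% of all genes tested. This did not hold in every alternative: after quantile normalization Nfkb1 (-0.052) and Nfkbiz (-0.0089) were lower in DM. Nfkbiz was also lower (-0.044) without DM replicate 3. The median change of the 10 was 0.29, against 0.01 over all genes tested, and none of the 10 reached a 2-fold change. The groups did not overlap for the same 6 genes that were called, and 21.5% of all genes tested had DM values wholly above the WT values.

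The count of 6 depended on scaling and on single libraries. After quantile normalization 2 of the 10 were called (Tnf and Tnfaip3), and without the filter on low genes 3 were (Tnf, Tnfaip3 and Nfkb2). Leaving out WT replicate 1 left 1 call (Tnf), leaving out DM replicate 2 or DM replicate 3 left 2 (Tnf and Tnfaip3 each time), and leaving out DM replicate 1 or WT replicate 3 left 4.

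**Figure D1:**
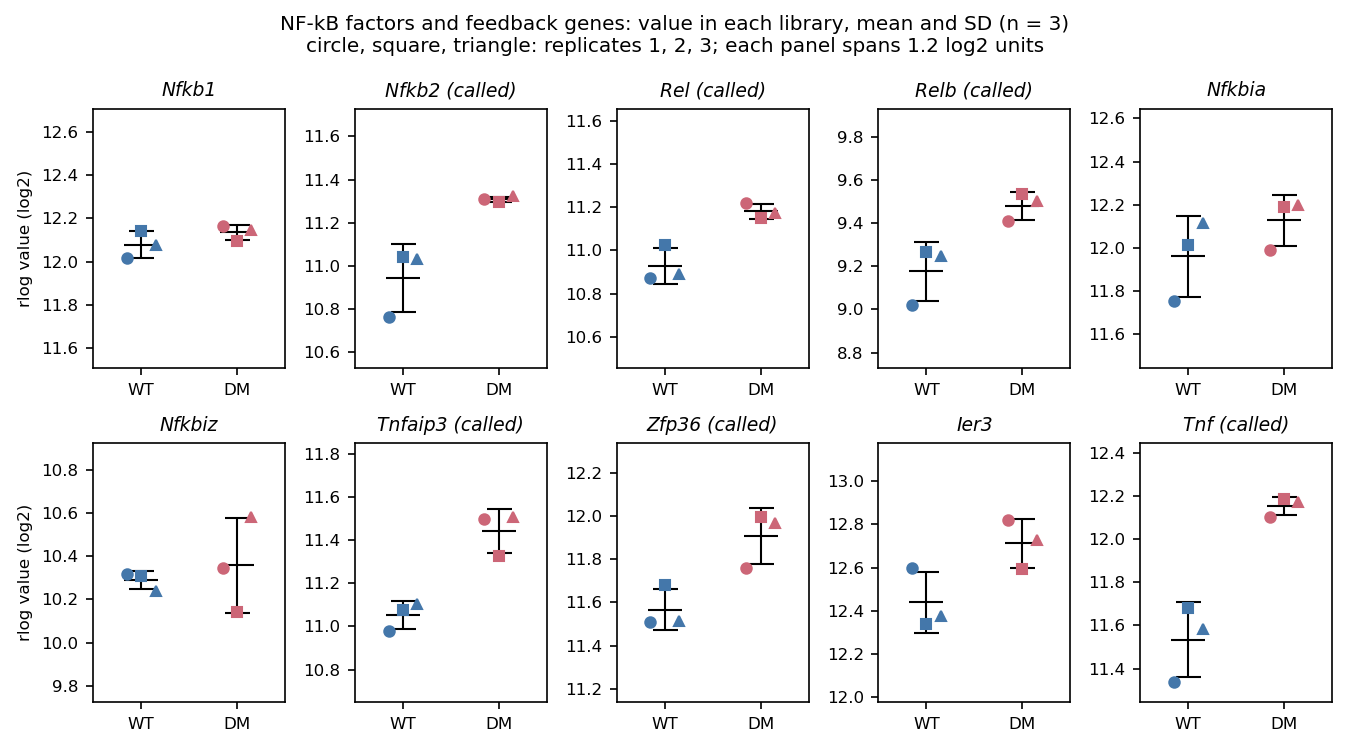
rlog value (vertical axes, log2) of each of the 10 genes in the 3 WT and 3 DM libraries, with circles, squares and triangles for replicates 1, 2 and 3 and bars for the mean ± SD. The 6 genes marked as called have every DM library above every WT library, and Tnf has the widest gap, from 11.68 in the highest WT library to 12.1 in the lowest DM library.

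Promoter sequence was looked at because feedback in this pathway runs through NF-κB sites. RefSeq windows on GRCm38.p6, from 250 bases before to 50 bases after a start site, were found for 7 of the 10 genes and were not found for Nfkb1, Relb and Nfkbiz. The κB consensus, searched by its name on both strands, matched in 5 of these 7 genes (Nfkb2, Rel, Nfkbia, Tnfaip3 and Ier3). It matched in 9.55% of the 27025 genes with such windows, where a gene counts once if any of its windows matched. The 7 genes had 10 windows, and the 27025 genes had 32851. Because the 10 genes were chosen as factors and feedback genes of this pathway, the shares are a description and no test of enrichment. The 130 bases before the start of those 5 genes are shown, 5′ to 3′ on the strand of the gene, with the matched bases in capitals, for the first listed RefSeq start where a gene has several. The stretches of Nfkb2 and Tnfaip3 lie wholly inside the gene as GENCODE M21 annotates it, whose outermost start lies further upstream. That of Ier3 lies in part inside its gene, and that of Rel by its last base.
Nfkb2 (chr19:46304607-46304736, plus strand): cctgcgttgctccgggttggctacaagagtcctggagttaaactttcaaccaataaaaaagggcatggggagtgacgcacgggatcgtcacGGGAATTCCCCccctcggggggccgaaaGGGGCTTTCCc
Rel (chr11:23770970-23771099, minus strand): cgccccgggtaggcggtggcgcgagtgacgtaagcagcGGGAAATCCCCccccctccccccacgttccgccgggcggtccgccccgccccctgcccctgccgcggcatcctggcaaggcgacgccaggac
Nfkbia (chr12:55492648-55492777, minus strand): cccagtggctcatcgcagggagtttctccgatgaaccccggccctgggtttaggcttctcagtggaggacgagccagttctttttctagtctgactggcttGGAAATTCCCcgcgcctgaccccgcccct
Tnfaip3 (chr10:19015411-19015540, minus strand): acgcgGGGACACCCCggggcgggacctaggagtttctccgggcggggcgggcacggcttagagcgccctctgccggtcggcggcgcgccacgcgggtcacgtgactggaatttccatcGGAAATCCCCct
Ier3 (chr17:35821583-35821712, plus strand): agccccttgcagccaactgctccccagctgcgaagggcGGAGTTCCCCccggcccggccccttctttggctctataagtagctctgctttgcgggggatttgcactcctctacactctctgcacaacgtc
Nfkb2 holds overlapping matches that begin 39 and 38 bases before the start, and another that begins 11 bases before it. Rel holds overlapping matches beginning 92 and 91 bases before its start. The match at 91 and the match nearest the start of Tnfaip3 have the same 10 letters, GGGGATTTCC, in both genes on the strand opposite to the gene. The match in Nfkbia begins 29 bases and that in Ier3 92 bases before the start. Tnf and Zfp36 had no match, which says only that these letters are not in these windows. Of the 5 genes with a match, Nfkb2, Rel and Tnfaip3 rose while Nfkbia and Ier3 did not pass the test, and of the 2 without one, both rose.

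Among the Rel subunits, Nfkb2, Relb and Rel rose and Nfkb1 did not pass the test. Nfkb2 (ENSMUSG00000025225.15, chromosome 19, 46304320 to 46312385, plus strand; gene and UTR coordinates are from GENCODE M21 on GRCm38) read 10.76, 11.04 and 11.03 in the WT libraries, in the order of replicates 1 to 3, against 11.31, 11.3 and 11.32 in the DM libraries. The DM libraries lay within a narrow band above all WT libraries, of which replicate 1 was the lowest. The change was 0.36 (SE 0.0835, limma adjusted p 0.0194). It lost its call when WT replicate 1 (0.27, limma adjusted p 0.0738), DM replicate 2 (0.37, 0.0656) or DM replicate 3 (0.36, 0.0694) was left out and after quantile normalization (0.26, 0.0617). Psd, annotated on the opposite strand at this locus, read between 4.44 and 4.72 in the 6 libraries, and whether reads were counted by strand is not given in the sources used here.

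Relb (ENSMUSG00000002983.17, chromosome 7, 19606217 to 19629438, minus strand), the partner of p52, read 9.02, 9.27 and 9.25 in WT and 9.41, 9.53 and 9.5 in DM. Every DM library was above every WT library, by 0.14 at the closest. The change was 0.3 (SE 0.0822, limma adjusted p 0.0371), and it kept its call in 6 of 13 alternatives. Rel (ENSMUSG00000020275.9, chromosome 11, 23736847 to 23770970, minus strand), which encodes c-Rel, a subunit with a strong activation domain, read 10.87, 11.02 and 10.89 in WT and 11.22, 11.15 and 11.17 in DM. The groups were 0.13 apart at the closest. The change was 0.25 (SE 0.0686, limma adjusted p 0.037), again with its call kept in 6 of 13 alternatives. Both genes lost their calls in each fit without WT replicate 1, without DM replicate 1, 2 or 3, without the filter on low genes and after quantile normalization. The call of Relb also ended when libraries were centred on their medians (0.27, limma adjusted p 0.0514), and leaving out WT replicate 3 that of Rel (0.23, 0.0703).

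Nfkb1 (ENSMUSG00000028163.17, chromosome 3, 135584655 to 135691547, minus strand) read 12.02, 12.14 and 12.08 in WT and 12.16, 12.1 and 12.15 in DM. The groups overlapped, and the change was 0.06 with a 95% interval from -0.09 to 0.21 (limma adjusted p 0.593). Its direction turned after quantile normalization, to -0.052. An offset shared by all genes of a library cancels on subtraction, while scaling that moves genes unequally, such as quantile normalization, does not. Each of the other 3 subunits was therefore also set against Nfkb1 inside each library. These differences were among 6 gene pairs chosen after their values were seen. Nfkb2 minus Nfkb1 was -1.25, -1.1 and -1.04 in WT against -0.86, -0.8 and -0.83 in DM, so it was 0.31 higher in DM without overlap. Relb minus Nfkb1 was 0.24 higher and Rel minus Nfkb1 0.19 higher in DM, also without overlap. Each of the 3 had a two-sided exact permutation p of 0.1, the smallest that 3 against 3 allows, and 0.15 when adjusted over the 6 pairs. That adjustment does not allow for the choice of pairs with values known, so these differences are a description.

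The IκB inhibitors did not pass the test. Nfkbia (ENSMUSG00000021025.8, chromosome 12, 55489410 to 55492647, minus strand), which encodes IκBα, the classic inhibitor that NF-κB makes anew after each activation, read 11.75, 12.01 and 12.12 in WT and 11.99, 12.19 and 12.2 in DM. The lowest DM library lay below 2 of the WT libraries. The change was 0.17 with a 95% interval from -0.06 to 0.39 (limma adjusted p 0.303), which leaves room for a rise of the size seen in Nfkb2. Nfkbiz (ENSMUSG00000035356.17, chromosome 16, 55811375 to 55838899, minus strand), which encodes IκBζ, a nuclear member that helps switch on secondary response genes, read 10.32, 10.31 and 10.24 in WT. In DM it read 10.35, 10.14 and 10.58, a spread (SD 0.22) wider than in WT (SD 0.0417). DM replicate 2 was the lowest of all 6 libraries and DM replicate 3 the highest. The change of Nfkbiz was 0.07 (limma adjusted p 0.682), and it was -0.044 without DM replicate 3 and -0.0089 after quantile normalization.

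Tnfaip3 (ENSMUSG00000019850.11, chromosome 10, 19000910 to 19015657, minus strand) had the second largest change of the 10 genes. It read 10.98, 11.08 and 11.11 in WT and 11.5, 11.32 and 11.5 in DM. The groups were 0.22 apart at the closest, with DM replicate 2 the lowest of its group. The change was 0.39 (SE 0.0751, limma adjusted p 0.0101), and the call was kept in 12 of 13 alternatives, the exception being the fit without WT replicate 1 (0.35, limma adjusted p 0.0507). Set against Nfkbia within each library, Tnfaip3 was 0.22 higher in DM, but the groups overlapped (exact permutation p 0.2, two-sided, also 0.2 when adjusted over the 6 pairs).

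Zfp36 (ENSMUSG00000044786.6, chromosome 7, 28376784 to 28380253, minus strand) read 11.51, 11.68 and 11.51 in WT and 11.76, 12 and 11.97 in DM. The lowest DM library was 0.08 above the highest WT library. The change was 0.34 (SE 0.0853, limma adjusted p 0.0273). It lost its call when WT replicate 1 (0.31, limma adjusted p 0.109), WT replicate 3 (0.31, 0.0578), DM replicate 2 (0.3, 0.116) or DM replicate 3 (0.31, 0.106) was left out, after quantile normalization (0.24, 0.0554) and without the filter on low genes (0.34, 0.0544). Gm44710, annotated on the opposite strand, read between 4.37 and 4.44. Of the related mRNA-binding proteins, Zfp36l2, named after its values were seen, rose by 0.37 (limma adjusted p 0.027), and Zfp36l1 changed by 0.18 and did not pass the test (limma adjusted p 0.293). Zfp36 minus Zfp36l1 within each library was 0.16 higher in DM with overlapping groups (exact permutation p 0.2, two-sided, also 0.2 when adjusted over the 6 pairs).

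Ier3 (ENSMUSG00000003541.6, chromosome 17, 35821684 to 35822923, plus strand), an early response gene linked to cell survival, read 12.6, 12.34 and 12.38 in WT and 12.82, 12.59 and 12.73 in DM. WT replicate 1, the lowest WT library for 8 of the 10 genes, was the highest WT library for this gene and lay just above DM replicate 2. The change was 0.27 with a 95% interval from 0.07 to 0.48 (limma adjusted p 0.0783). It was called in 1 of 13 alternatives, the fit with a replicate block (limma adjusted p 0.00869).

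Tnf (ENSMUSG00000024401.14, chromosome 17, 35199381 to 35202007, minus strand) changed most. It read 11.34, 11.68 and 11.58 in WT and 12.1, 12.18 and 12.17 in DM. The DM libraries agreed closely (SD 0.0432, against 0.174 in WT) and were at least 0.42 above every WT library. The change was 0.62 (SE 0.0903, limma adjusted p 0.00385), a ratio of 1.54 after the difference is taken back to the linear scale. It lay above the changes of 98.6% of all genes tested. The call was kept in all 13 alternatives, in which the change ran from 0.51 after quantile normalization to 0.69 without WT replicate 2, with limma adjusted p from 0.000632 to 0.0199. Set against Nfkbia within each library, Tnf was 0.45 higher in DM without overlap. The exact permutation p was 0.1 (two-sided), the smallest that 3 against 3 allows, and 0.15 when adjusted over the 6 pairs. This pair too was chosen after its values were seen, which the adjustment does not allow for, so the difference is a description.

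Tnf lies between Ltb and Lta, which encode the 2 lymphotoxin chains. Ltb (chromosome 17, 35194439 to 35196320, plus strand) read lower in all 3 DM libraries, at 8.15 ± 0.121 (mean ± SD, n = 3) against 8.57 ± 0.283 in WT, but its change of -0.42 did not pass the test (limma adjusted p 0.0584). Lta (chromosome 17, 35203165 to 35205351, minus strand) read low, with a mean of 4.1 in WT and 4.15 in DM (change 0.06, limma adjusted p 0.507). Both were named after their values were seen.

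AU-rich elements were counted because tristetraprolin binds them in the 3′ UTR of Tnf mRNA and of its own mRNA. The letters TATTTAT (U for T in the RNA, sense strand only, overlaps allowed) were searched in the 3′ UTR of 1 principal GENCODE M21 transcript per gene. They were found in 6 of the 10 genes and in 27.3% of the 13853 genes tested that had such a UTR. Tnf held 8 copies, Ier3 4, Zfp36 3, and Nfkbia, Rel and Tnfaip3 2 each, while 0.541% of the 13853 UTRs held 5 or more. UTR length differs between genes: that of Tnf has 764 bases and that of Rel 5418, and among UTRs of at most 1000 bases 11.9% held the element. The densest 30 bases are shown for the 2 called genes with the most copies and for 2 genes that carry the element and did not pass the test, with TATTTAT in capitals.
Tnf (chr17:35199678-35199707, minus strand): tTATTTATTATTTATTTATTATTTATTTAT
Zfp36 (chr7:28376962-28376991, minus strand): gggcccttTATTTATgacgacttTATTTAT
Ier3 (chr17:35822484-35822513, plus strand): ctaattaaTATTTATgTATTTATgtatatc
Nfkbia (chr12:55489604-55489633, minus strand): ccacgtttTATTTATtgtgcttttgattga
These 4 stretches were chosen because they hold the element. Nfkb2 and Relb, which rose, held no copy of TATTTAT, nor did Nfkb1 and Nfkbiz, which did not pass the test. Of these, all but Relb held the shorter letters ATTTA (4 each in Nfkb1 and Nfkbiz, 1 in Nfkb2). The share of all genes with ATTTA was not counted.

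**Figure D2:**
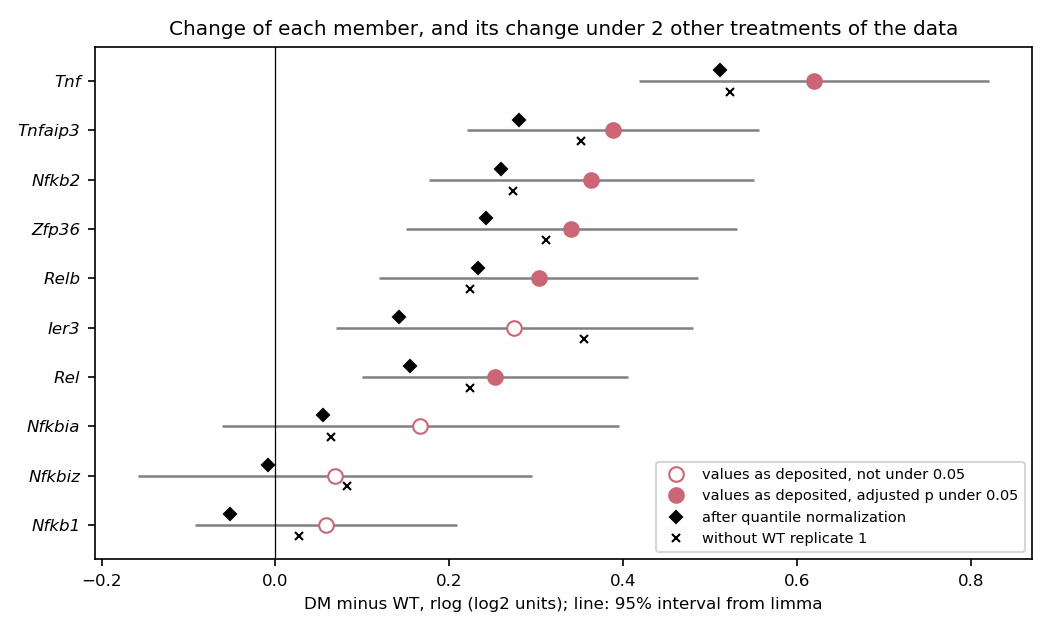
Change of each gene (DM minus WT, log2 units, horizontal axis) with its 95% interval from limma, filled where the adjusted p is under 0.05, beside the change after quantile normalization (diamonds) and without WT replicate 1 (crosses). Tnf stays above 0.5 in all 3, and quantile normalization moves every gene to the left.

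The libraries did not contribute alike within their groups. Averaged over the 10 genes and centred on the 6 libraries, the level was -0.22, -0.08 and -0.12 in the WT libraries (replicates 1 to 3), against 0.12, 0.11 and 0.19 in the DM libraries. WT replicate 1 was the lowest WT library for 8 of the 10 genes and DM replicate 2 the lowest DM library for 6. By a rule on likeness, the 5 other genes whose values over the 6 libraries correlated best with this mean profile were Akap7 (Pearson r 0.997), Slc23a2 (0.994), Avl9 (0.994), Cd14 (0.993) and Rbsn (0.993). These are descriptions over 6 libraries that share their grouping, and 212 of the 11967 genes compared had an r over 0.95. Cd14, a coreceptor for bacterial lipopolysaccharide, rose by 0.54 (limma adjusted p 0.0067) and Slc23a2, a vitamin C transporter, by 0.31 (limma adjusted p 0.0162). Akap7, Avl9 and Rbsn did not pass the test, with changes of 0.16, 0.18 and 0.21 (limma adjusted p 0.141, 0.0826 and 0.0591).

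Other negative regulators of inflammatory signalling, not all of them brakes of NF-κB itself, rose more often than they fell. Of 17 further negative regulators 7 were called, all 7 higher, against 13.9% of all genes tested (9.2% higher). The median change of the 17 was 0.21, and 16 of them had a higher mean in DM, against 51.6% of all genes tested. Socs3, an inhibitor of cytokine receptor signalling, rose from 11.2 ± 0.164 (SD, n = 3) to 11.85 ± 0.0773 (change 0.65, SE 0.0903, limma adjusted p 0.00307). Tnip3 (0.46, limma adjusted p 0.00724) and Tnip1 (0.43, 0.00626), which encode partners of A20, and Zc3h12a (0.43, 0.0275), which encodes the RNase Regnase-1, also rose, the last with its call lost in 5 of 13 alternatives. Traf1 and Birc3, textbook NF-κB targets named after their values were seen, changed by 0.21 and 0.16 and did not pass the test (limma adjusted p 0.189 and 0.289). The count of 7 was 3 when WT replicate 1, WT replicate 3 or DM replicate 2 was left out, and 4 when DM replicate 1 or DM replicate 3 was, or after quantile normalization.

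Of the 6 remaining Rel and IκB genes 1 was called, against 13.9% of all genes tested. Nfkbie, which encodes IκBε, rose by 0.36 (SE 0.0848, limma adjusted p 0.0225), and lost its call when replicate 1 or 3 of either group was left out. Rela, which encodes p65, the main activating subunit, changed by 0.2 and did not pass the test (limma adjusted p 0.0986).

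The kinases and adaptors that carry the signal showed a median change of 0.12 over 29 genes. Of these, 6 were called, all 6 higher, against 13.9% of all genes tested (9.2% higher). The largest rises were in Malt1, a protease and scaffold of the CARD-BCL10-MALT1 complex (0.55, limma adjusted p 0.0106), Irak2 (0.45, 0.00844), a kinase adaptor of Toll-like and IL-1 receptors, and Map3k8 (0.44, 0.0334), a MAP kinase kinase kinase held by p105. Map3k8 lost its call in 6 of 13 alternatives. Ikbkg, which encodes the IKK scaffold NEMO, rose by 0.35 (limma adjusted p 0.0157). The catalytic subunits of IKK did not pass the test, with changes of 0.12 for Chuk (limma adjusted p 0.291) and 0.14 for Ikbkb (0.198), both named after their values were seen. Map3k14, the kinase of the noncanonical branch, also named after its values were seen, changed by 0.01 (limma adjusted p 0.952). The count of 6 fell to 2 without WT replicate 1, and to 3 without DM replicate 2, without DM replicate 3 or without the filter on low genes.

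Among 15 ligands and receptors of the TNF superfamily, 13 were tested, with a median change of 0.06. Of these, 4 were called, 3 higher and 1 lower, against 13.9% of all genes tested. Tnfrsf1b, which encodes the TNF receptor TNFR2, rose from 13.43 ± 0.232 (SD, n = 3) to 14.15 ± 0.134 (change 0.72, SE 0.12, limma adjusted p 0.00648), and kept its call in all 13 alternatives. Tnfrsf1a, which encodes the other TNF receptor, TNFR1, changed by 0.17 and did not pass the test (limma adjusted p 0.343). It was singled out with its values known. Tnfrsf11a, which encodes RANK (0.44, limma adjusted p 0.0248), and Tnfsf14 (0.27, 0.0447) rose, and Tnfsf13b, which encodes the B cell factor BAFF, fell by 0.31 (0.0236). Of the 13 alternatives, Tnfsf14 lost its call in 8, Tnfsf13b in 5 and Tnfrsf11a in 4. The count of 4 was 2 when WT replicate 1 or 3 or DM replicate 1 or 2 was left out or after quantile normalization, and 1 without DM replicate 3.

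Of 36 inflammatory genes that NF-κB is known to activate, 35 were tested. Of these, 18 were called, 16 higher and 2 lower, against 13.9% of all genes tested. The median change of the 35 was 0.33. The largest rises were in Sdc4, a heparan sulphate proteoglycan (0.75, limma adjusted p 0.00377), Il1a, a cytokine (0.74, 0.0108), Clec4e, which encodes the receptor Mincle (0.72, 0.0101), and Icam1, an adhesion receptor (0.7, 0.00308), each called in all 13 alternatives. The 2 that fell were Nos2, the inducible nitric oxide synthase (change -0.93, limma adjusted p 0.00442), and Vcam1, an adhesion receptor (change -0.74, 0.00423), both called in all 13 alternatives. Il6, Irf1 and Il1b, named after their values were seen, did not pass the test, with changes of -0.1 (limma adjusted p 0.606), -0.0039 (0.98) and 0.37 (0.0982). The count of 18 stayed between 14 and 21 in all 13 alternatives.

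**Figure D3:**
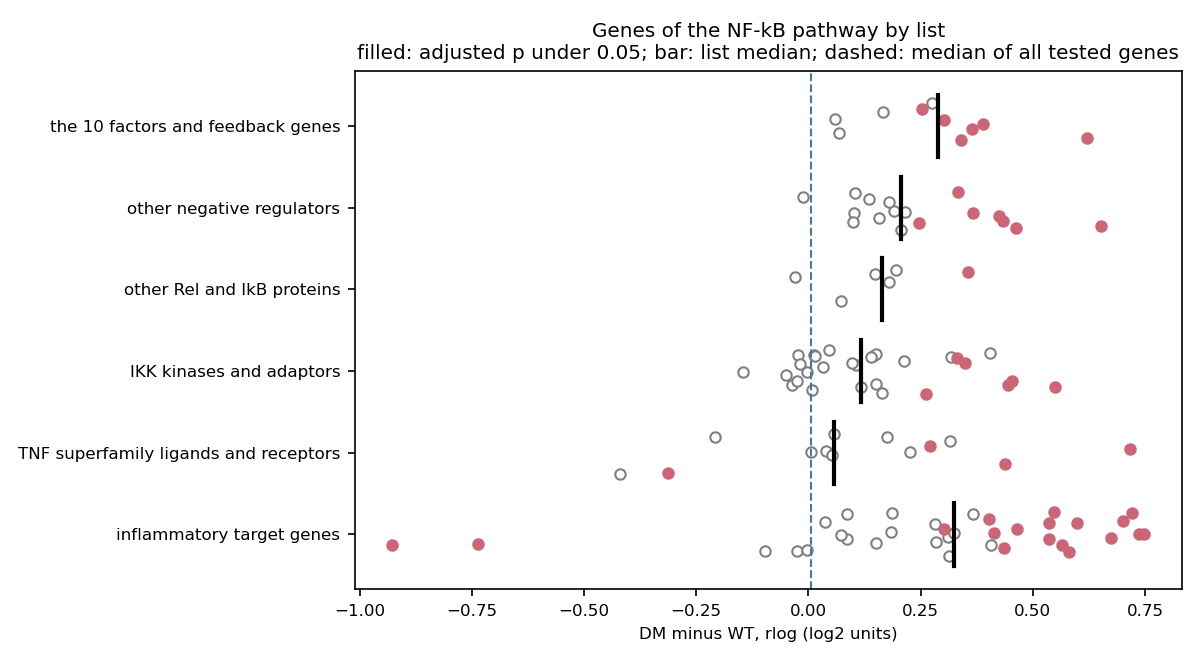
Change (DM minus WT, log2 units, horizontal axis) of every tested gene of the NF-κB pathway by list, filled where the limma adjusted p is under 0.05, with a bar at each list median and a dashed line at the median of all tested genes. The inflammatory targets have the highest median (0.33) and also the 2 lowest points, Nos2 and Vcam1.

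Lists of markers for other blood cell types were counted in the same fit. Over all genes tested it called 13.9%, 9.2% as higher and 4.71% as lower. Of 18 monocyte and macrophage markers 17 were tested and 13 were called, 11 higher and 2 lower, with a median change of 0.54. Their mean, centred on the 6 libraries, lay between -0.29 and 0.01 in WT and between 0.06 and 0.26 in DM. The largest rises were in Ctss (0.96, limma adjusted p 0.0115), Gpnmb (0.96, 0.012) and Cd68 (0.94, 0.00777), while Ly6c2 (-1.13, limma adjusted p 0.00361) and Ccr2 (-0.78, 0.00975), which mark inflammatory monocytes, fell. C1qa, which marks resident macrophages, was under the filter, with means of 2.54 in WT and 2.47 in DM. Of 16 neutrophil markers 12 were called, all 12 lower, with a mean level between 0.69 and 0.91 in WT and between -1.02 and -0.43 in DM. The granule genes Mpo (change -4.23), Elane (-3.96) and Prtn3 (-3.37) fell most. Of 10 stem and progenitor markers 3 were called, Procr higher (0.73) and Myb (-0.65) and Flt3 (-0.3) lower, with a median of -0.02. Flt3 stood at the threshold (limma adjusted p 0.0494) and lost its call in 10 of the 12 alternatives that tested it. Of 10 mast cell and basophil markers 1 was called, Hdc (-0.62, limma adjusted p 0.0457), which lost its call in 8 of 13 alternatives. Of 12 erythroid and megakaryocyte markers 11 were tested and 2 were called, Gp1ba (0.55) and Vwf (0.54). The part of these markers in the changes of the NF-κB genes was not tested.

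**Figure D4:**
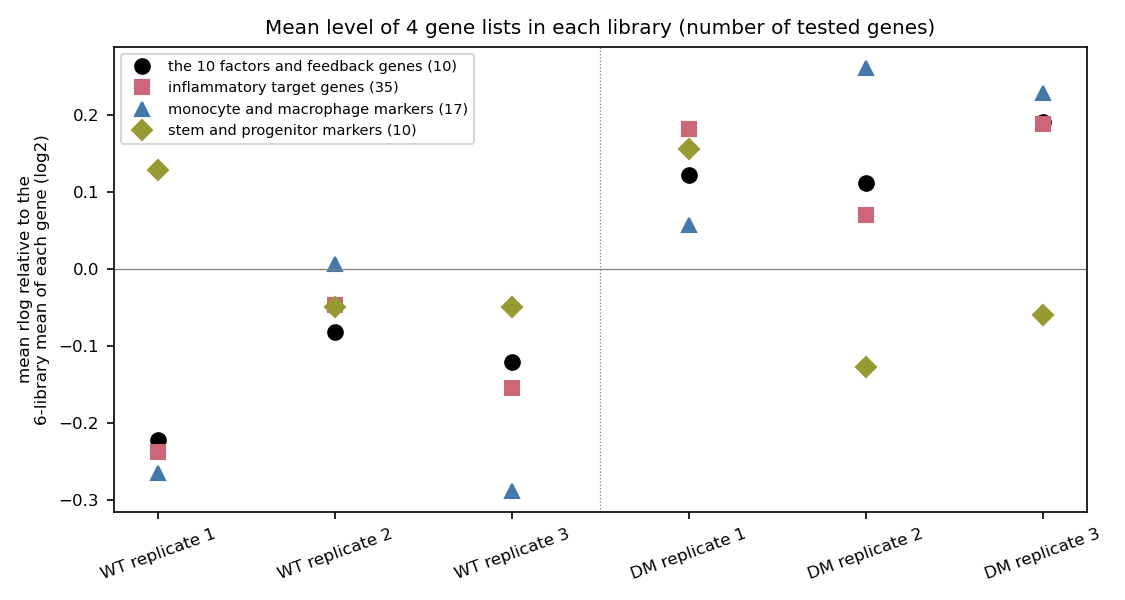
Mean rlog of 4 gene lists in each library relative to the 6-library mean of each gene (vertical axis, log2 units), with WT libraries left and DM libraries right of the dotted line. The 10 NF-κB genes, their inflammatory targets and the monocyte and macrophage markers are higher in every DM library than in every WT library, while the stem and progenitor markers are not.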

How the data were processed

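The deposited table held rlog values on the log2 scale for 6 libraries, read as such from its name and values; per the submitters' processing notes, cutadapt 2.6, STAR 2.7.3, DESeq2 1.30.0 and mm10 were used, while the counting tool, the annotation and the use of strand are not given in the sources used here. The authors' values hold no counts, so depth is unknown and no counting interval was computed. The 142699 lines were merged to 55487 genes. The libraries' medians over tested genes lay between 8.03 and 8.11, and no 2 libraries were identical.

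Genes with a mean of at least 3 (18766) were fitted with limma 3.58.1 in R 4.3.3 (lmFit, eBayes with a mean-variance trend, prior degrees of freedom 5.82), DM against WT, no covariates, Benjamini-Hochberg adjustment, threshold 0.05. Values were plotted with matplotlib 3.10.9. On simulated data for 18766 genes the fit recovered 64 of 67 genes changed by 0.5, all 67 changed by 1 and all 66 changed by 2. It made 16 false calls among the genes left unchanged. The simulated noise was normal and independent between libraries, with each gene's spread drawn toward the median, and deviations shared by genes of a library were not simulated. No change under 0.5 was simulated. Of the 6 called NF-κB genes only Tnf changed by more than that, so the simulation does not cover the others.

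The members, lists and rules were chosen with earlier results of these data known. Besides the 10 genes, the rule named up to 4 called genes per direction in each pathway list, up to 3 in each marker list, Kit, Cd34 and the 5 genes of most similar profile (mean of at least 6). For the lymphoid and dendritic list, 5 of 10 markers were tested and 2 called, against 13.9% of all genes tested. Il7r was higher (0.79, limma adjusted p 0.0094) and Nkg7 lower (-1.89, 0.000155). Alternatives were no filter, a mean of at least 5, no trend, a robust prior, quantile normalization, centring on the median, a replicate block and leaving out each library.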

Additional observations from a re-analysis of the deposited data

How the results depend on the processing

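Depth is unknown for these values, and 3 libraries a group limit what can be called. The number of called genes was 2611. Over the fits with a library left out it ran from 1119 (DM replicate 2) to 3475 (WT replicate 2), with 1185 for WT replicate 1 and 1537 for DM replicate 3. The number of the 10 NF-κB genes called, all higher, was 6, against 13.9% of all genes tested (9.2% higher). It was 3 without the filter on the mean and 2 after quantile normalization, and it ran from 1 to 6 over the fits that left out a library (1 without WT replicate 1, 6 without WT replicate 2). The causes were not tested. Changes of single genes were recomputed for the genes named by the rule given above, other than those of most similar profile. Among these, the direction turned for Nfkb1 (-0.052) and Nfkbiz (-0.0089) after quantile normalization. Over the fits with a library left out, Nfkbiz ran from -0.044 (DM replicate 3) to 0.18 (DM replicate 2) and Cd34 from -0.17 (DM replicate 1) to 0.14 (DM replicate 2), and Cd34 was also positive, at 0.097, for WT replicate 1. None of these values passed the test. Quantile normalization took the median of the 10 genes from 0.29 to 0.19, and centring on the library median took it to 0.26. With a replicate block 7 of the 10 genes were called, Ier3 in addition (limma adjusted p 0.00869), 3742 genes in all, 7 TNF superfamily genes in place of 4 and 2 further Rel and IκB genes in place of 1. Equal replicate numbers had correlated deviations of 0.491, 0.116 and 0.0412, and unequal numbers ran from -0.336 to 0.124. The labels do not say whether the numbers pair the libraries, and with 3 libraries a group these values cannot decide it. The main fit therefore had no block. Not every library correlated best with its own number, since WT replicate 3 did so with DM replicate 2 (0.124).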
